A study of Mus musculus with 12 samples.

Results

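The genes described here are 51 mouse genes of DNA replication and nucleotide supply, chosen by name for their known functions and set against 35976 gene names measured in each of 12 libraries of RNA from cultured mouse cells. They cover the loading and activation of the replicative helicase, the polymerases with their clamp and clamp loader, the single-strand binding protein, the joining of Okazaki fragments, the chromatin factors that follow the fork, the enzymes that supply deoxynucleotides, and the E cyclins. All 51 were found, none was below 1 FPKM in any library, and all 51 were among the 13316 genes tested. FPKM, fragments per kilobase of transcript for a fixed total of mapped fragments, is scaled by transcript length and library size, so that levels can be set side by side between genes.

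The cells came from A2lox.cre embryonic stem cells, a mouse line with an inducible cassette, into which RUNX1-EVI1 was placed under doxycycline control. RUNX1-EVI1 is a leukaemia-associated fusion of a transcription factor of blood development with EVI1, a zinc finger protein encoded by Mecom. Every group carried the construct and was made the same way. Embryoid bodies were dispersed after 3.25 days, FLK1+ cells were cultured for 1 day, and doxycycline was then present or absent for a further 18 hours. The PlusDox groups received 0.5 µg/ml and the NoDox groups 0 µg/ml. From both, 3 populations were sorted in 2 biological replicates each, which makes 6 groups. HE1 and HE2 are the labelled first and second stages of hemogenic endothelium, and HP the hematopoietic progenitors. Hemogenic endothelium is the vascular tissue that gives rise to blood cells. Colonies were expanded after selection, and the number of clones used and the sort gates are not stated. The cells keep their own Runx1 and Mecom genes, and none of the 12 libraries is from cells given doxycycline without the construct, so that an effect of the drug and one of the fusion cannot be told apart.

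Replication begins when the origin recognition complex, Cdc6 and Cdt1 load the MCM2-7 ring onto DNA in G1. Kinases then join Cdc45 and the GINS complex to the ring to make the active helicase, after which polymerase alpha with primase starts each strand and polymerases delta and epsilon extend them on the PCNA clamp. Many of these genes are transcribed in a wave before S phase by E2F factors, which the RB family holds back and which E-type cyclins with CDK2 help release. In these bulk samples, a smaller share of cells in S phase and less RNA per cell cannot be told apart.

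Summed FPKM per library ran from 468326 to 579055. The files hold no read counts, and the depth relative to the other libraries, read from the steps of low values, ran from 0.58 in PlusDox HE1 replicate 2 to 1.6 in PlusDox HE1 replicate 1. In 5 libraries, namely replicate 2 of each PlusDox group, NoDox HE1 replicate 1 and NoDox HP replicate 2, 3 features (Lars2, Mir6236 and LOC101056014) took 8.81% to 16.85% of all FPKM, against 0.35% to 0.59% in the other 7. In HE2 only the PlusDox group holds such a library, so results on HE2 are also given without it. Mecom stood at 5.18 and 5.51 FPKM in PlusDox HP and at 0.194 and 0.205 FPKM in NoDox HP (log2 fold change 2.40 ± 0.32, limma adjusted p = 0.0058), and in HE2 at 18.4 and 20.2 FPKM in PlusDox and 6.08 and 13.9 FPKM in NoDox cells (adjusted p = 0.0923). In HE1 the Mecom groups overlapped, at 23.0 and 18.1 FPKM in PlusDox and 17.0 and 28.3 FPKM in NoDox cells (−0.10, adjusted p = 0.986). Runx1 had 35.8 and 21.3 FPKM in PlusDox HE2, against 29.4 and 36.8 FPKM in NoDox HE2, and 62.0 and 15.2 FPKM in PlusDox HP, against 67.4 and 56.0 FPKM in NoDox HP, with no call in any population (adjusted p from 0.72 to 0.995). Under which gene name reads of the fusion were counted was not tested. Of 8 endothelial markers, all 8 averaged at least 1 FPKM in each HE1 and HE2 group and 5 in each HP group. The sum of 8 haematopoietic markers was 35.1 to 106 FPKM in HE1, where Ptprc was below 0.1 FPKM, and 392 to 588 FPKM in HP.

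The mean summed level of the replication genes was higher at each later stage and lower with doxycycline in each population. Their summed level in HE1 was 1365 and 1050 FPKM in the 2 PlusDox libraries and 1517 and 1412 FPKM in the 2 NoDox libraries. In HE2 it was 1735 and 1346 FPKM in PlusDox and 2559 and 2087 FPKM in NoDox cells. In HP it was 2723 and 2148 FPKM in PlusDox and 3083 and 2627 FPKM in NoDox cells. The sums of PlusDox and NoDox libraries did not overlap in HE1 or in HE2, while in HP the higher PlusDox library lay between the 2 NoDox libraries. Between stages, the sums overlapped with doxycycline, where PlusDox HE1 replicate 1 (1365 FPKM) lay above PlusDox HE2 replicate 2 (1346 FPKM). Within each group, replicate 1 was the higher of the pair for 38 to 50 of the 51 genes, with medians of 0.12 to 0.39 on the log2 scale, against −0.11 to 0.25 over all tested genes.

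**Figure D1:**
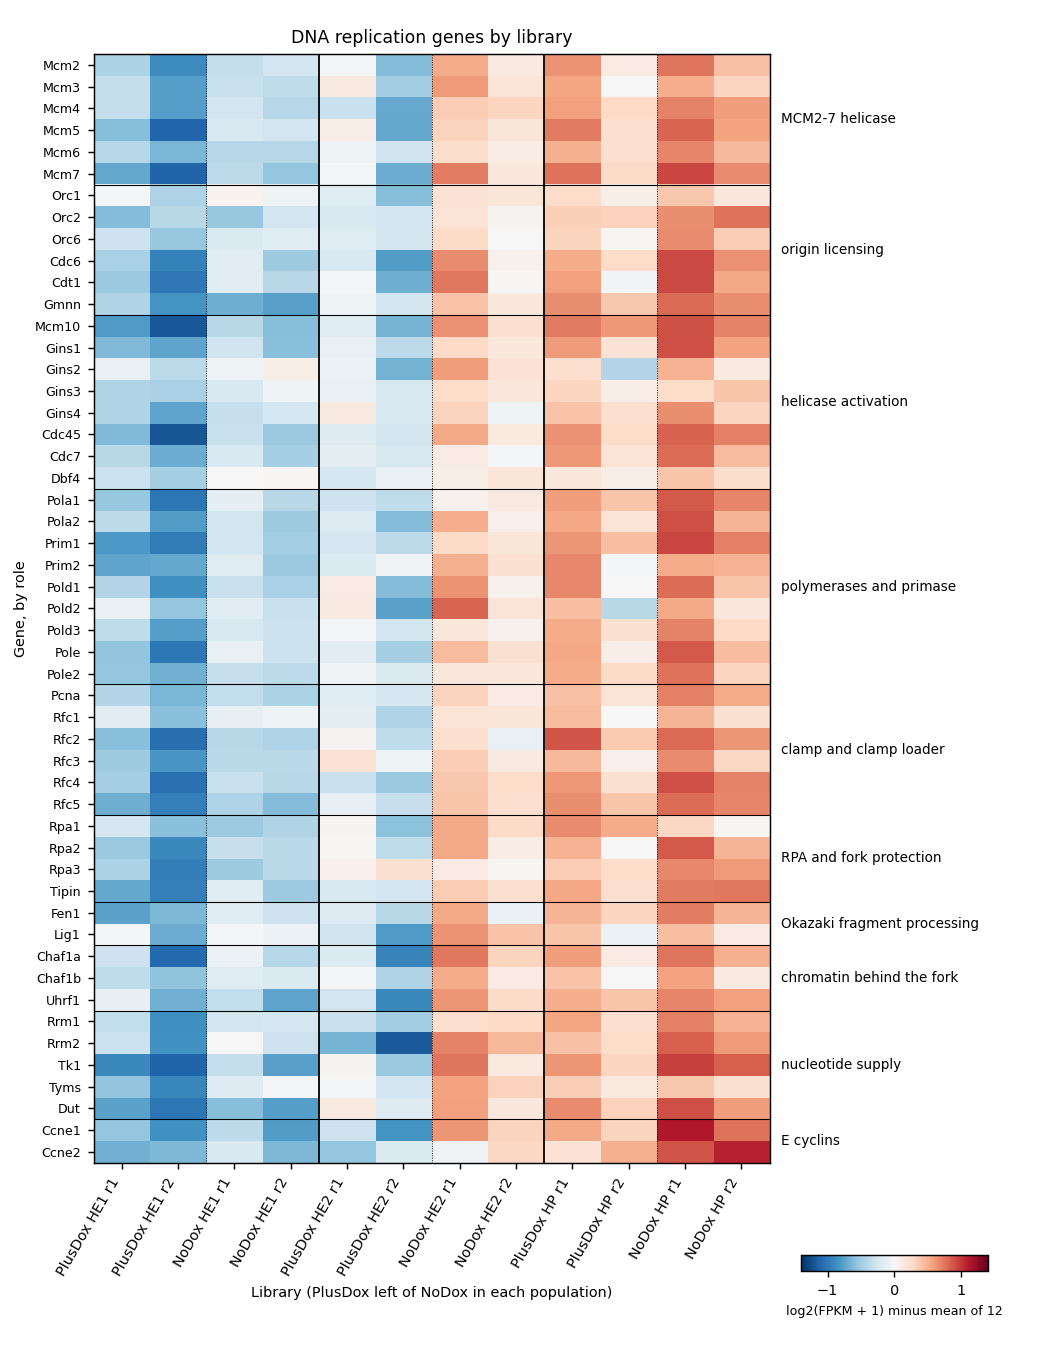
Each row is 1 of the 51 genes, grouped by role, and each column 1 of the 12 libraries, with PlusDox left of NoDox in HE1, HE2 and HP. Colour is log2(FPKM + 1) minus the gene's mean over the 12 libraries, blue for below and red for above. The PlusDox HE1 columns are the bluest and the NoDox HP columns the reddest, and the PlusDox HE2 columns are paler or bluer than the NoDox HE2 columns in nearly every row.

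The order of the group means was much the same from gene to gene. The lowest of the 6 group means was PlusDox HE1 for 44 genes, PlusDox HE2 for 5 (Orc1, Gins2, Lig1, Uhrf1 and Rrm2) and NoDox HE1 for 2 (Gmnn and Rpa1). The highest was NoDox HP for 46 genes, NoDox HE2 for 4 (Gins2, Pold2, Lig1 and Tyms) and PlusDox HP for 1, Rpa1. Averaged over all libraries, levels ran from 5.36 FPKM for Gins3, a subunit of the GINS complex, to 148 FPKM for Pcna, the sliding clamp. Mcm6 (96.5 FPKM), Uhrf1 (86.0 FPKM) and Mcm7 (80.5 FPKM) followed Pcna. The 6 ring subunits ranged from 56.9 to 96.5 FPKM, the 9 polymerase and primase genes from 12.6 to 32.2 FPKM, and the 2 E cyclins from 7.87 to 14.2 FPKM.

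Of the 3 populations, HE2 had the median fold farthest from 0 between PlusDox and NoDox cells. There 50 of the 51 genes were lower in PlusDox cells, the median log2 fold change was −0.54 (−0.05 over all tested genes), and 5 genes fell at an adjusted p below 0.05. They were Rrm2, Lig1, Ccne1, Uhrf1 and Mcm4, which act in deoxynucleotide synthesis, Okazaki fragment joining, S phase entry, maintenance of DNA methylation and DNA unwinding. The 5 are 9.8% of the 51 genes, against 2.24% of all tested genes called lower and 6.06% called in either direction. At an unadjusted p below 0.05, 32 were lower (11.6% of all tested genes), and for 46 both PlusDox libraries lay below both NoDox libraries (28.0% of all tested genes). The 5 that overlapped were Gins4, Pold1, Rfc2, Rfc3 and Rpa3. Just outside the threshold stood Mcm10 (log2 fold change −0.84, adjusted p = 0.0503) and Chaf1a (−1.08, adjusted p = 0.0615). Without PlusDox HE2 replicate 2, the library with high Lars2, or without NoDox HE2 replicate 1, Rrm2 was the 1 gene called, with 49 of 51 lower and medians of −0.38 and −0.43. Without either NoDox HP library 3 were called, and without either PlusDox HE1 library or PlusDox HE2 replicate 1 there were 8. When each library was rescaled after removal of the 3 features, 23 were called. This scaling was chosen after seeing the data. The shares of all tested genes called under these alternatives are not given here.

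**Figure D2:**
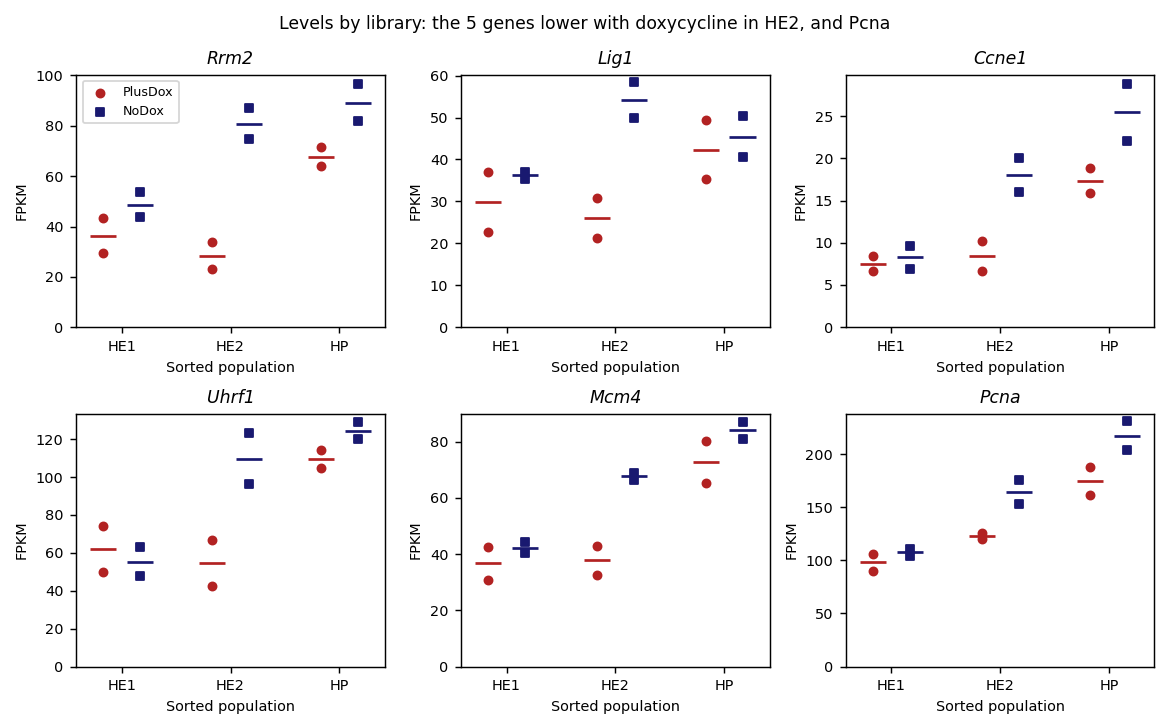
FPKM in each library (points, PlusDox in red and NoDox in dark blue) with the mean of 2 (lines) for the 5 genes called lower with doxycycline in HE2 and for Pcna, in HE1, HE2 and HP. In HE2 the PlusDox points lie below the NoDox points in all 6 panels. For the 5 called genes the means lie closer together in HE1 and in HP than in HE2.

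Rrm2, on chromosome 12 (24708241 to 24714146, plus strand, mm10, GENCODE annotation), encodes the small subunit of ribonucleotide reductase, the enzyme that makes deoxynucleotides. In HE2 it stood at 33.7 and 23.1 FPKM in PlusDox cells and at 87.1 and 74.6 FPKM in NoDox cells. Both PlusDox libraries lay far below both NoDox libraries. The log2 fold change was −1.50 ± 0.23 (SE; 0.354-fold; limma adjusted p = 0.00383), the largest of the 51 genes. It remained called when each library was left out in turn, with folds from −1.76 to −1.24 and adjusted p from 0.00304 to 0.0473. In HE1 it was at 43.3 and 29.3 FPKM in PlusDox and 53.9 and 43.6 FPKM in NoDox cells, and in HP at 71.4 and 64.2 FPKM in PlusDox and 96.7 and 81.8 FPKM in NoDox cells. PlusDox libraries were below NoDox libraries in both, and neither fold passed the test (−0.44, adjusted p = 0.659, and −0.39, adjusted p = 0.742). The other suppliers of nucleotides were also lower in HE2 without passing the test. These were the large reductase subunit Rrm1 (−0.66), the thymidine salvage kinase Tk1 (−0.69), the thymidylate synthase Tyms (−0.59) and the dUTPase Dut (−0.39), which keeps uracil out of DNA, with adjusted p of 0.0778, 0.134, 0.0925 and 0.318.

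Lig1 on chromosome 7 (13277283 to 13311433, plus strand) encodes DNA ligase 1, which seals Okazaki fragments. In HE2 it had 30.7 and 21.2 FPKM in PlusDox cells and 58.4 and 49.8 FPKM in NoDox cells (log2 fold change −1.05 ± 0.26, limma adjusted p = 0.0362). Its groups overlapped in HE1, with 36.9 and 22.7 FPKM in PlusDox and 37.1 and 35.4 FPKM in NoDox cells, and in HP, with 49.3 and 35.4 FPKM in PlusDox and 50.3 and 40.6 FPKM in NoDox cells. Fen1, the nuclease that trims the fragments before ligation, had a fold nearer 0 in HE2 (−0.50, adjusted p = 0.187).

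Uhrf1 on chromosome 17 (56303321 to 56323486, plus strand) encodes the protein that brings DNMT1 to newly made DNA. In HE2 it had 66.6 and 42.4 FPKM in PlusDox cells and 123 and 96.4 FPKM in NoDox cells (log2 fold change −1.02 ± 0.26, limma adjusted p = 0.0378). In HE1 the groups overlapped, at 74.0 and 50.0 FPKM in PlusDox and 62.9 and 47.7 FPKM in NoDox cells. In HP they did not, at 114 and 105 FPKM in PlusDox and 129 and 120 FPKM in NoDox cells, with a log2 fold change of −0.18. Chaf1a, the large subunit of the chromatin assembly factor CAF-1, had 22.5 and 13.1 FPKM in PlusDox HE2 and 43.8 and 32.3 FPKM in NoDox HE2. Its partner Chaf1b had a fold of −0.54 (adjusted p = 0.186).

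Ccne1 on chromosome 7 (38097984 to 38107534, minus strand) encodes cyclin E1, the partner of CDK2 at the start of S phase. In HE2 it had 10.2 and 6.65 FPKM in PlusDox cells and 20.0 and 16.0 FPKM in NoDox cells (log2 fold change −1.03 ± 0.25, limma adjusted p = 0.0316). In HE1 it was low in both, at 8.39 and 6.60 FPKM in PlusDox and 9.60 and 6.94 FPKM in NoDox cells, and the groups overlapped. In HP it had 18.8 and 15.9 FPKM in PlusDox and 28.8 and 22.1 FPKM in NoDox cells, apart but not past the test (−0.52, adjusted p = 0.557). The second E cyclin, Ccne2, had its largest difference in HP, with 8.37 and 10.5 FPKM in PlusDox and 14.0 and 16.2 FPKM in NoDox cells (−0.63, adjusted p = 0.303).

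Mcm4 on chromosome 16 (15623897 to 15637400, minus strand) was the 1 called gene of the 6 that form the MCM2-7 ring. In HE2 it had 42.9 and 32.6 FPKM in PlusDox cells and 68.8 and 66.5 FPKM in NoDox cells (log2 fold change −0.84 ± 0.20, limma adjusted p = 0.0338). The PlusDox HE2 mean of 37.7 ± 7.29 FPKM (SD, n = 2) was close to those of HE1, 36.7 ± 8.21 FPKM in PlusDox and 42.4 ± 2.82 FPKM in NoDox cells. Log2 folds in HE2 of the other 5 ring subunits ran from −0.79 for Mcm7 to −0.35 for Mcm6, the most abundant. In all 6 the groups did not overlap (28.0% of all tested genes). Mcm6 had 88.4 and 76.0 FPKM in PlusDox HE2 and 110 and 99.7 FPKM in NoDox HE2.

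Among the genes that license origins, all 6 were lower and did not overlap in HE2 (28.0% of all tested genes), and none was called. The loader Cdc6 had the largest fold (−0.86, limma adjusted p = 0.0804), followed by its partner Cdt1 (−0.73), with 34.1 and 21.2 FPKM in PlusDox and 58.3 and 35.0 FPKM in NoDox HE2. Subunits of the origin recognition complex had folds of −0.57 (Orc1), −0.36 (Orc2) and −0.34 (Orc6). Gmnn, which encodes geminin, the inhibitor of Cdt1, had −0.43, with 43.1 and 37.6 FPKM in PlusDox and 59.9 and 50.1 FPKM in NoDox HE2. Loaders and inhibitor alike had negative folds.

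Of 8 genes that turn the loaded ring into an active helicase, all were lower in HE2 and 7 did not overlap (28.0% of all tested genes). Folds ran from −0.84 for Mcm10, which helps open the helicase, to −0.17 for Gins4. Gins2, the most abundant of them, had 30.8 and 20.2 FPKM in PlusDox and 49.4 and 37.6 FPKM in NoDox HE2 (−0.76, limma adjusted p = 0.107). The kinase Cdc7 (−0.21) and its activator Dbf4 (−0.30) had smaller folds than Cdc45 (−0.55).

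All 9 polymerase and primase genes were lower in HE2 and 8 did not overlap (28.0% of all tested genes), with none called. Pold2, the second subunit of polymerase delta, had the largest fold (−0.81, limma adjusted p = 0.183) and the widest replicates, at 33.5 and 17.9 FPKM in PlusDox and 54.9 and 34.8 FPKM in NoDox HE2. Pold3, the smallest fold, had −0.24. Pole, the catalytic subunit of the leading-strand polymerase epsilon, had 11.0 and 8.65 FPKM in PlusDox and 17.0 and 14.4 FPKM in NoDox HE2 (−0.63).

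All 6 genes of the clamp and its loader were lower in HE2 and none was called. Pcna, on chromosome 2, had 126 and 120 FPKM in PlusDox and 176 and 153 FPKM in NoDox cells (−0.42, limma adjusted p = 0.189). The loader subunits ran from −0.73 for Rfc4 to −0.17 for Rfc3, and 4 of the 6 clamp genes did not overlap (28.0% of all tested genes). The 3 subunits of RPA, which coats single-stranded DNA, had unlike folds, with −0.49 for Rpa2. Rpa1 had 69.0 and 44.7 FPKM in PlusDox and 97.4 and 81.3 FPKM in NoDox HE2 (−0.67, adjusted p = 0.0993), while Rpa3 had 33.6 and 37.3 FPKM in PlusDox and 34.7 and 32.5 FPKM in NoDox HE2 and was the 1 gene of the 51 with a positive fold there (0.07).

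**Figure D3:**
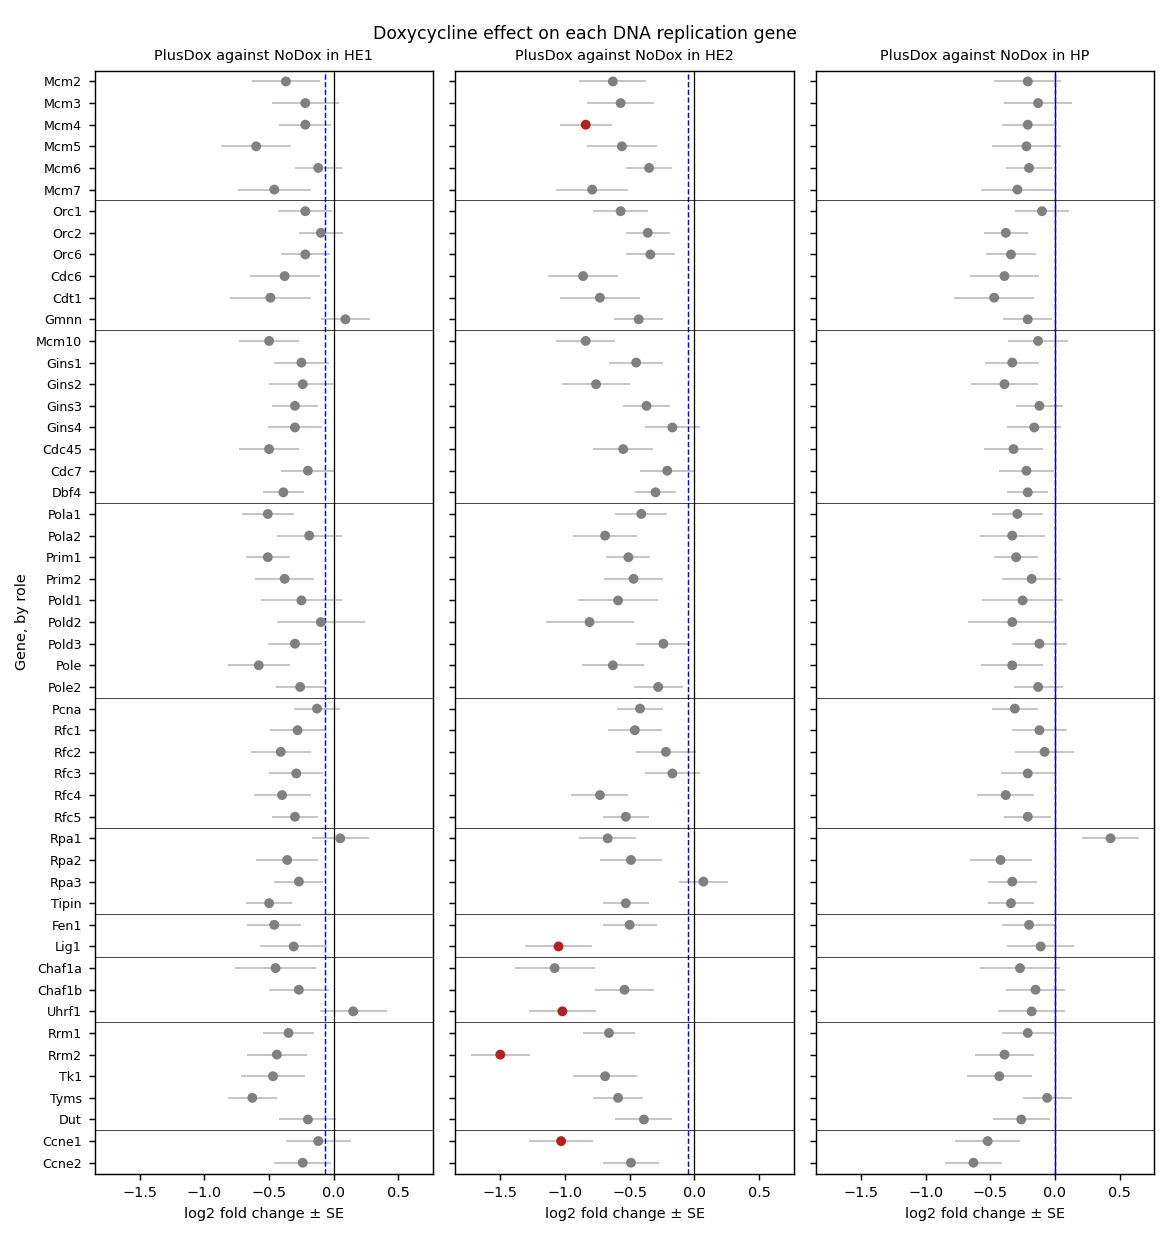
Log2 fold change of PlusDox against NoDox with its standard error for each of the 51 genes in HE1, HE2 and HP, with lines between role groups in the order of the heatmap. Red points passed an adjusted p below 0.05, and the blue dashed line marks the median of all tested genes. Nearly all points lie left of that line, and the 5 red points are in HE2.

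Promoters of the 4 called genes with the largest folds are shown because E2F sites are the best-known control elements of this gene class. The letters searched were TTTCCCGC, TTTCGCGC, TTTGCCGC and TTTGGCGC on both strands (E2F type), CCAAT, and TTTGAA (CHR type). Sequences run from 250 bases before to 50 after the RefSeq start on the gene's strand (GRCm38.p6, the assembly of mm10), and capitals mark an E2F-type match. Rrm2 is at chr12:24708004-24708303 (plus), Lig1 at chr7:13278576-13278875 (plus), Ccne1 at chr7:38107441-38107740 (minus) and Uhrf1 at chr17:56304063-56304362 (plus).
Rrm2: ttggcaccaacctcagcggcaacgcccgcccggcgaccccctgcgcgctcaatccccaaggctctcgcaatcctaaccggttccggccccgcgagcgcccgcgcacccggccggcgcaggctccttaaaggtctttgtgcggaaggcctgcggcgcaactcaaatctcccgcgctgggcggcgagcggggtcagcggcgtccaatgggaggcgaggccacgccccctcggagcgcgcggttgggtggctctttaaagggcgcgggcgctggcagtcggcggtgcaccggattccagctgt
Lig1: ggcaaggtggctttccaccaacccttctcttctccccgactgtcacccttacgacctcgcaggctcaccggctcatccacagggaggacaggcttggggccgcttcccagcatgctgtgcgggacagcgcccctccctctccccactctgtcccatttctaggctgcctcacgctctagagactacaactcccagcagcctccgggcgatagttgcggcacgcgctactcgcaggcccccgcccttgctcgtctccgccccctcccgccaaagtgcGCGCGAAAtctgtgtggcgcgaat
Ccne1: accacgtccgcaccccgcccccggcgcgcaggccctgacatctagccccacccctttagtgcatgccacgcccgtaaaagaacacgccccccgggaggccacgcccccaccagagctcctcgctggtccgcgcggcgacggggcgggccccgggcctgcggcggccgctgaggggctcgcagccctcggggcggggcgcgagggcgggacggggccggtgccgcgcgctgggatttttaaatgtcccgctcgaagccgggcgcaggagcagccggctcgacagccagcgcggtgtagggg
Uhrf1: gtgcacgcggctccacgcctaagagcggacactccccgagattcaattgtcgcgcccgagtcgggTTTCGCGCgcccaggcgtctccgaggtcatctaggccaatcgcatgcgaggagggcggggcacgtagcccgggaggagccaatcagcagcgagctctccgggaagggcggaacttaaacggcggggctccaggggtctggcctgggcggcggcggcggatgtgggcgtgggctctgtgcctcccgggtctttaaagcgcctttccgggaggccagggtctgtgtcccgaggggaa
Lig1 and Uhrf1 each held 1 match, at position 27 and position −185 from the start, where 1 is the first transcribed base. For these genes with several starts in the table, the window with a match is the one printed, a choice made after the sequences were seen. Rrm2 and Ccne1 held none of the E2F-type letters, while Rrm2 held 1 CCAAT at −50 and Uhrf1 held 2, at −150 and −107.

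In 2 subunits of the MCM2-7 ring, matches on opposite strands overlapped. Stretches of 60 bases on the gene's strand show this for Mcm5 (chr8:75109330-75109389, plus) and Mcm6 (chr1:128359782-128359841, minus), with matches in capitals. The stretch of Mcm7 (chr5:138172015-138172074, minus) is set beside them. It holds 1 of the 2 matches of Mcm7, that at −165, and the other was at 17. Mcm6 held a further match at −47, outside its stretch. Mcm3 held 2 matches, at 20 and 39, which did not overlap, and is not printed. Mcm2 held no E2F-type match, and no promoter sequence was found for Mcm4.
Mcm5: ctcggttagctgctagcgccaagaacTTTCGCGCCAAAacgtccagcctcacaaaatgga
Mcm6: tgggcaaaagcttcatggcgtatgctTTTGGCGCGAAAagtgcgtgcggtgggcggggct
Mcm7: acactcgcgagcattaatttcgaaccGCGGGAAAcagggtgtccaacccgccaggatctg
In Mcm5 and in Mcm6 a match on the gene's strand runs into one on the opposite strand, so that 12 letters hold both. Promoters of 41 of the 51 genes were in the table, and 15 of them (36.6%) held an E2F-type match, against 464 of 9683 tested genes with a promoter (4.79%) and 704 of all 27025 genes in the table (2.6%). CCAAT was in 24 of 41 (58.5%, against 42.8%) and TTTGAA in 7 (17.1%, against 14.2%). There were 21 E2F-type matches in all, between −185 and 40. The median log2 fold in HE2 was −0.57 in the 15 genes with a match and −0.55 in the 26 without. A match of letters is a description and not a bound site.

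In HE1 the replication genes were also mostly lower with doxycycline, and none was called. There 48 of 51 were lower in PlusDox cells, the median was −0.30 (−0.07 over all tested genes, of which 61.6% were lower), and limma called 0 at an adjusted p below 0.05 (1.37% of all tested genes). At an unadjusted p below 0.05, 9 were lower (4.56% of all tested genes), and for 33 the libraries did not overlap (22.0% of all tested genes). Tyms, thymidylate synthase, had the largest fold (−0.63 ± 0.19, adjusted p = 0.171), with 18.4 and 14.2 FPKM in PlusDox and 24.2 and 27.3 FPKM in NoDox HE1. Mcm5 had 48.2 and 33.5 FPKM in PlusDox and 62.7 and 60.6 FPKM in NoDox HE1 (−0.60), and Pole had 8.10 and 5.62 FPKM in PlusDox and 11.4 and 9.80 FPKM in NoDox HE1 (−0.58). In each of these 3 the groups did not overlap. The 3 genes with positive folds were Uhrf1 (0.15), Gmnn (0.09) and Rpa1 (0.05), and in each PlusDox HE1 replicate 2 alone lay below the NoDox HE1 mean. Without PlusDox HE1 replicate 2, the library of lowest relative depth, the median was −0.14 with 43 of 51 lower (0.048 over all tested genes), and without PlusDox HE1 replicate 1 it was −0.45 (−0.19 over all tested genes). Among libraries low in Lars2, 1 against 1 in HE1, it was −0.10 with 35 of 51 lower (−0.001 over all tested genes).

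In HP, 50 of 51 genes were lower in PlusDox cells, by a median of −0.22 (−0.00 over all tested genes), and limma called 0 (0.834% of all tested genes). At an unadjusted p below 0.05, 2 were lower (2.7% of all tested genes), and in 18 the libraries did not overlap downwards (13.2% of all tested genes). The median was −0.07 without PlusDox HP replicate 2, with 38 of 51 lower (0.117 over all tested genes), and −0.41 without PlusDox HP replicate 1 (−0.114 over all tested genes). It was −0.14 without NoDox HP replicate 1 (0.093 over all tested genes) and −0.37 without NoDox HP replicate 2 (−0.106 over all tested genes). The 2 E cyclins had the largest folds, Ccne2 at −0.63 and Ccne1 at −0.52, followed by Cdt1 at −0.47, with 51.9 and 33.7 FPKM in PlusDox and 66.6 and 50.8 FPKM in NoDox HP. Rpa1 was the exception. It had 107 and 96.6 FPKM in PlusDox HP and 82.0 and 68.3 FPKM in NoDox HP (0.43 ± 0.22, adjusted p = 0.625), and was the 1 gene of the 51 whose libraries separated upwards (20.5% of all tested genes). Rpa2 and Rpa3, the other RPA subunits, had folds of −0.42 and −0.33.

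**Figure D4:**
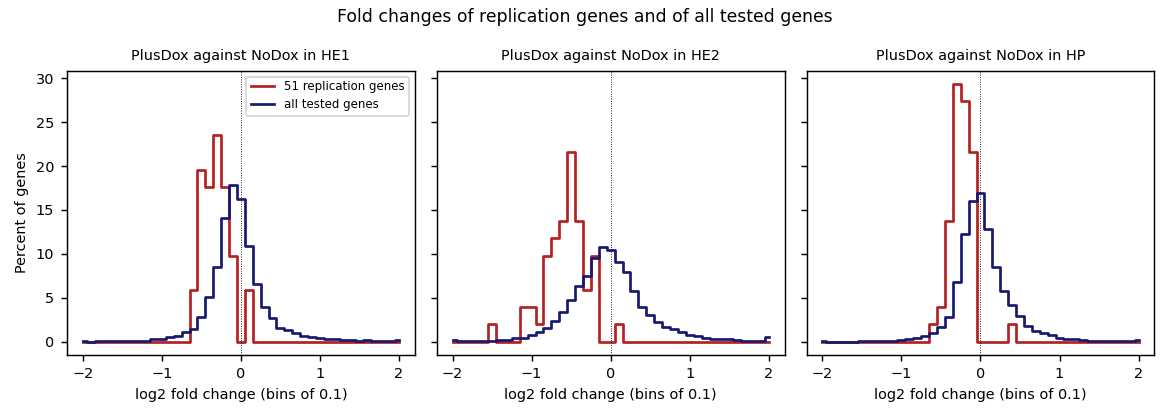
Share of genes, in percent, by log2 fold change of PlusDox against NoDox in bins of 0.1 for the 51 replication genes (red) and all 13316 tested genes (dark blue) in HE1, HE2 and HP. Values past the axis are in the outermost bins. The red curve is left of the dark one in each panel, with medians of −0.30, −0.54 and −0.22.

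Whether the doxycycline effect differed between populations was tested as the difference of the log2 folds, and limma called 0 of 51 genes in each of the 3 comparisons. For HE2 against HE1 the median difference was −0.23, with 4 genes at an unadjusted p below 0.05 (0.0451% of all tested genes called, 6.7% at an unadjusted p below 0.05). The largest were Uhrf1 (−1.17 ± 0.36, adjusted p = 0.43), Rrm2 (−1.06 ± 0.33, adjusted p = 0.44) and Ccne1 (−0.91 ± 0.35, adjusted p = 0.599). For HP against HE2 it was 0.30, with 5 genes at an unadjusted p below 0.05 (0.015% called, 6.57% at an unadjusted p below 0.05). Rrm2 (1.11 ± 0.33), Rpa1 (1.10 ± 0.32) and Lig1 (0.94 ± 0.37) led, with adjusted p of 0.456, 0.438 and 0.663. For HP against HE1 the median was 0.09, with 0 genes at an unadjusted p below 0.05 (0.0375% called, 6.53% at an unadjusted p below 0.05). The larger folds in HE2 are therefore not shown to differ from those in HE1 or HP. The comparisons share libraries, and the folds are given side by side for that reason.

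Along the stages without doxycycline, the genes were higher at both later stages. All 51 were higher in NoDox HE2 than in NoDox HE1, as were 65.6% of all tested genes. The median of the 51 was 0.61 on the log2 scale, against 0.16 over all tested genes, so that they stood 0.45 above it. That all-gene median moved to 0.031 under quantile normalization, 0.028 under median scaling and −0.023 on rescaling without the 3 features, where 50, 50 and 49 of the 51 genes were higher. Of the 51, 10 rose at an adjusted p below 0.05 (5.67% of all tested genes called higher), and for all 51 both NoDox HE2 libraries were above both NoDox HE1 libraries (45.6% of all tested genes). The 10 were Dut, Ccne1, Gmnn, Tk1, Uhrf1, Mcm10, Rpa1, Rfc5, Tipin and Pcna. Dut had 41.8 and 30.9 FPKM in NoDox HE2 and 18.0 and 15.8 FPKM in NoDox HE1 (1.05 ± 0.22, limma adjusted p = 0.0116). Gmnn had 59.9 and 50.1 FPKM in NoDox HE2 and 27.8 and 26.2 FPKM in NoDox HE1 (0.99 ± 0.19, adjusted p = 0.00873). The level was close to 2-fold higher in both. The counts of calls that follow, with a library left out, stand without the share of all tested genes called. No gene of the 51 was called without NoDox HE2 replicate 1 or without NoDox HE1 replicate 2, and 5 were without NoDox HE1 replicate 1.

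From HE2 to HP without doxycycline, 46 of 51 were higher in NoDox HP, by a median of 0.37 (−0.06 over all tested genes), and 4 rose at an adjusted p below 0.05 (5.31% of all tested genes called higher). In 28 the libraries did not overlap (22.2% of all tested genes). The 4 were Ccne2, Orc2, Pola1 (polymerase alpha) and Prim1 (primase). Their partner subunits Pola2 and Prim2 were not called, and a difference between partners was not tested. Pola2 averaged 40.4 FPKM in NoDox HP and 30.4 FPKM in NoDox HE2, and Prim2 35.4 FPKM in NoDox HP and 31.9 FPKM in NoDox HE2. Ccne2 had 14.0 and 16.2 FPKM in NoDox HP and 6.90 and 8.97 FPKM in NoDox HE2 (0.86 ± 0.22, limma adjusted p = 0.0197). Pola1 had 29.8 and 26.4 FPKM in NoDox HP and 16.7 and 17.6 FPKM in NoDox HE2 (0.68 ± 0.20, adjusted p = 0.034). Rfc2, the third by size, had 99.4 and 87.8 FPKM in NoDox HP and 66.8 and 52.9 FPKM in NoDox HE2 (0.64, adjusted p = 0.0884). The 5 that were lower in NoDox HP were Rpa1, Lig1, Pold2, Tyms and Gins2, with folds from −0.25 to −0.09. With a library left out, counts of calls are again given without the share of all tested genes called. Called genes numbered 0 without NoDox HE2 replicate 1 or either NoDox HP library, and 1, Ccne2, without NoDox HE2 replicate 2.

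With doxycycline, the step from HE1 to HE2 held negative as well as positive folds. Of the 51, 46 were higher in PlusDox HE2 than in PlusDox HE1, as were 67.3% of all tested genes. The median of the 51 was 0.37 (0.17 over all tested genes, so 0.20 above it). At an adjusted p below 0.05, 2 of the 51 rose (3.92%, against 5.7% of all tested genes called higher). In 30 the libraries did not overlap (37.9% of all tested genes). The 2 were Rpa3, with 33.6 and 37.3 FPKM in PlusDox HE2 and 23.2 and 15.9 FPKM in PlusDox HE1 (0.85 ± 0.19, limma adjusted p = 0.0169), and Dut, with 30.3 and 24.4 FPKM in PlusDox HE2 and 16.1 and 13.3 FPKM in PlusDox HE1 (0.85 ± 0.22, adjusted p = 0.031). Tk1 had 45.4 and 30.6 FPKM in PlusDox HE2 and 23.2 and 19.8 FPKM in PlusDox HE1 (0.77, adjusted p = 0.0858). Rrm2, Uhrf1, Lig1, Orc1 and Gins2 were the 5 with negative folds, from −0.34 to −0.14, and none passed the test. Under quantile normalization, median scaling and rescaling without the 3 features, 10, 11 and 16 of the 51 were lower in PlusDox HE2. Here too the count of calls with a library left out stands without the share of all tested genes called. Without PlusDox HE1 replicate 2 or either PlusDox HE2 library, 0 were called.

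From HE2 to HP with doxycycline, all 51 were higher in PlusDox HP, by a median of 0.63 (−0.01 over all tested genes), and 19 rose at an adjusted p below 0.05 (5.96% of all tested genes called higher). In 44 the libraries did not overlap (23.5% of all tested genes). Rrm2 had the largest fold (1.25 ± 0.23, limma adjusted p = 0.00301), with 71.4 and 64.2 FPKM in PlusDox HP and 33.7 and 23.1 FPKM in PlusDox HE2. Mcm10 had 24.1 and 22.0 FPKM in PlusDox HP and 12.5 and 8.67 FPKM in PlusDox HE2 (1.07 ± 0.23, adjusted p = 0.00653). Uhrf1 had 114 and 105 FPKM in PlusDox HP and 66.6 and 42.4 FPKM in PlusDox HE2 (1.03 ± 0.26, adjusted p = 0.0151). The 19 came from every role group, among them Mcm4 and Mcm7 of the helicase, Orc2, Cdc6 and Gmnn of licensing, Rfc2, Rfc4 and Rfc5 of the clamp loader, and both E cyclins. Without PlusDox HE2 replicate 2 only Rrm2 was called, without PlusDox HP replicate 1 Rrm2 and Mcm10 were, without PlusDox HP replicate 2 there were 11, and without either NoDox HP library there were 12. For these alternatives the share of all tested genes called is not given here. The 2 HE1 to HE2 steps, and the 2 HE2 to HP steps, differ by the differences of doxycycline effects given above, for which 0 genes were called.

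**Figure D5:**
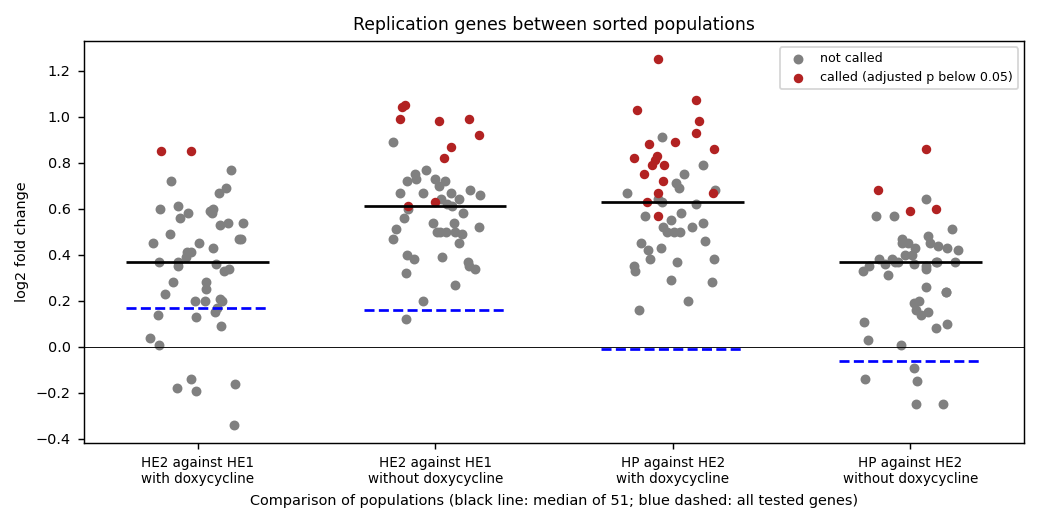
Log2 fold changes of the 51 genes (points, red where called) for the step to HE2 and the step to HP, with doxycycline left of without. Black lines are medians of the 51 genes (0.37, 0.61, 0.63 and 0.37) and blue dashed lines those of all tested genes. The genes lie highest in HE2 against HE1 without and in HP against HE2 with doxycycline.

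Genes around this machinery were followed in 4 further lists with doxycycline. Over all tested genes in HE2, 2.24% were called lower and 6.06% in either direction, and the median log2 fold was −0.07 in HE1, −0.05 in HE2 and −0.00 in HP. Of 34 accessory replication genes, 2 fell in HE2, the histone chaperone Asf1b (−0.78, limma adjusted p = 0.0429) and the chromatin remodeller Hells (−0.86, adjusted p = 0.0334), with a median of −0.52 in HE2, −0.26 in HE1 and −0.23 in HP. Among 22 checkpoint genes, the kinase Wee1 fell in HE2, with 9.44 and 7.15 FPKM in PlusDox and 13.8 and 14.2 FPKM in NoDox cells (−0.70, adjusted p = 0.0447), and the median of the list was −0.52. Of 25 genes of the E2F and RB network, 1 fell in HE2, Myc, at 11.3 and 9.53 FPKM in PlusDox and 29.9 and 23.6 FPKM in NoDox cells (−1.27 ± 0.22, adjusted p = 0.00636), and the list's median was −0.37.

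Of 32 genes of nucleotide synthesis and transport, 1 was called in HE1 (1.37% of all tested genes) and 2 in HE2 (6.06% of all tested genes). The list had medians of −0.11 in HE1, −0.46 in HE2 and −0.23 in HP. The nucleoside transporter Slc29a1 fell in both HE1 and HE2. It had 23.2 and 20.6 FPKM in PlusDox HE1 and 49.4 and 52.0 FPKM in NoDox HE1 (−1.18 ± 0.17, limma adjusted p = 0.0067), and 17.2 and 17.6 FPKM in PlusDox HE2 and 26.7 and 33.1 FPKM in NoDox HE2 (−0.74 ± 0.17, adjusted p = 0.0272). Samhd1, which breaks deoxynucleotides down, rose in HE2, with 23.1 and 26.5 FPKM in PlusDox and 14.8 and 14.9 FPKM in NoDox cells (0.70 ± 0.18, adjusted p = 0.0442). No gene of the 4 lists was called with doxycycline in HP. In HE2 the list thus held 1 gene called lower and 1 called higher, a share near that of all tested genes.

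Other RNAs share the ground of several of these genes. In the GENCODE annotation 19 of the 51 overlap a gene on the opposite strand, as Lig1 does Zswim9, Mcm7 does Cops6 and Ap4m1, and Tk1 does Afmid, and 13 overlap a feature on the same strand, as Mcm7 does the miRNA genes Mir25, Mir93 and Mir106b. The kit keeps strand, but the strand setting of the authors' counting is not given in the sources used here, so these levels may include reads of a partner. Pcna and Tyms have named pseudogenes, which can share reads with them. Head to head with a coding neighbour within 1000 bases stand 7 of the 51. Mcm4 starts 466 bases from Prkdc, a DNA repair kinase, which had 4.85 and 4.91 FPKM in PlusDox HE2 and 5.03 and 5.75 FPKM in NoDox HE2 (−0.12, limma adjusted p = 0.766), beside −0.84 for Mcm4.

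Markers of other cell types also moved with doxycycline in HE2. The summed level of the 8 endothelial markers was 1031 to 1058 FPKM in PlusDox and 561 to 897 FPKM in NoDox HE2, and that of 5 myeloid markers, of which 5 averaged at least 1 FPKM in PlusDox and 3 in NoDox HE2, 20.5 to 23.4 FPKM in PlusDox and 35.6 to 39.9 FPKM in NoDox HE2. The 6 erythroid markers overlapped, at 1013 to 1533 FPKM in PlusDox and 1315 to 1366 FPKM in NoDox HE2, as did the 8 haematopoietic markers, at 208 to 348 FPKM in PlusDox and 290 to 393 FPKM in NoDox HE2. In HP the endothelial sum was 171 to 231 FPKM in PlusDox and 104 to 122 FPKM in NoDox cells. The erythroid sum in HP was 6110 to 9336 FPKM in PlusDox and 9755 to 11475 FPKM in NoDox cells. Other blood markers overlapped in HP. The haematopoietic sum was 392 to 588 FPKM in PlusDox and 432 to 510 FPKM in NoDox HP. That of the myeloid list was 59.7 to 62.2 FPKM in PlusDox and 57.2 to 74.0 FPKM in NoDox HP. In HE1 the mesenchymal and smooth muscle sum was 243 to 316 FPKM in PlusDox and 129 to 206 FPKM in NoDox cells. This sum overlapped in HE2, at 57.9 to 99.2 FPKM in PlusDox and 64.3 to 96.5 FPKM in NoDox cells. It also overlapped in HP, at 39.9 to 94.8 FPKM in PlusDox and 48.6 to 70.1 FPKM in NoDox cells. The endothelial sum overlapped in HE1, at 1244 to 1372 FPKM in PlusDox and 1106 to 1597 FPKM in NoDox cells. The blood markers in HE1 were lower with doxycycline, with no overlap. Their sums in HE1 were 35.1 to 69.3 FPKM in PlusDox and 77.8 to 106 FPKM in NoDox cells for the haematopoietic list, 78.6 to 106 FPKM in PlusDox and 141 to 169 FPKM in NoDox cells for the erythroid list, and 0.212 to 0.838 FPKM in PlusDox and 1.29 to 2.51 FPKM in NoDox cells for the myeloid list. The sum of 4 cardiac markers was 1.69 to 2.61 FPKM in PlusDox and 3.97 to 5.79 FPKM in NoDox HE2. In HE1 it overlapped, at 5.03 to 6.82 FPKM in PlusDox and 6.46 to 7.46 FPKM in NoDox cells. It overlapped in HP as well, at 1.26 to 2.91 FPKM in PlusDox and 1.63 to 3.27 FPKM in NoDox cells. None of 3 pluripotency markers averaged 1 FPKM in any group. Their sum in HE1 was 0.927 to 1.27 FPKM in PlusDox and 0.438 to 0.449 FPKM in NoDox cells. In HE2 it was 0.483 to 0.957 FPKM in PlusDox and 0.319 to 0.348 FPKM in NoDox cells. In HP it was 0.299 to 0.693 FPKM in PlusDox and 0 to 0.0671 FPKM in NoDox cells. Of these 2 lists, Nanog (pluripotency) and Myh6 (cardiac) were below 0.1 FPKM in every group. The part of these cell types in the lower replication genes was not tested.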

How the data were processed

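RNA of 12 libraries (6 groups of 2 biological replicates) was sequenced by the authors as stranded total RNA, paired-end, in a single pool, per the labels. Per the submitters' processing notes, Trimmomatic 0.32, HISAT2 2.1.0 and StringTie 1.3.3 were used with mm10; their annotation and strand setting were not stated. The deposited values have no header and were read as FPKM from the tool named, from unequal sums and from values that are not whole. Repeated gene names were added up, giving 35976 names. Depth is known only relative to other libraries, and in 44 of 66 pairs 2 estimates of it differed by less than 0.1 (log2).

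Genes with at least 1 FPKM in at least 2 of 12 libraries (13316) were tested on log2(FPKM + 1), which understates folds of low genes. limma 3.58.1 in R 4.3.3 fitted 6 group means to all libraries with an intensity trend (6 residual degrees of freedom, prior 5.83). P-values were two-sided and Benjamini-Hochberg adjusted over all tested genes in each of 10 comparisons, and called below 0.05. They set each difference against the spread between the 2 replicates, pooled over groups and drawn towards that of genes of similar level. The fit was also run on data simulated from the gene means and spread of these libraries, and the outcome is not given here. The members, role groups, pathway lists, markers and tests were chosen with earlier results of these data known. Genes named with values were those called with doxycycline, the most abundant of each role group, the 3 largest folds of each comparison, and up to 3 called genes of each pathway list; others were named after their values were seen. The result of 1 gene of the checkpoint list is not reported here. Promoters came from RefSeq (GRCm38.p6) and coordinates from GENCODE. Alternatives were a pseudocount of 0.1, no filter, quantile normalization, median scaling, a replicate block, a term for libraries high in Lars2, those low in Lars2 alone, each library left out, and rescaling without 3 features, added after seeing the data. Python 3.11.15, pandas 2.3.3, numpy 2.4.6 and matplotlib 3.10.9 were used.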

Additional observations from a re-analysis of the deposited data

How the results depend on the processing

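Part of the called folds, 27 in all, were followed gene by gene, and their direction was kept under all alternatives run. The call itself was lost for 18 of the 27 with no filter, 2 on rescaling without 3 features and 1 under median scaling. Other folds were followed only as counts, and the number of the 51 genes called moved with the setting. Counts under the alternatives, here and above, stand without the share of all tested genes called under the same setting. A changed count is therefore not a result about the replication genes alone. In HE1 with doxycycline, 1 gene (Tyms) in place of 0 was called under quantile normalization, median scaling, the term for libraries high in Lars2 and rescaling without 3 features. In HE2 with doxycycline, in place of 5, calls numbered 1 with no filter, 15 under quantile normalization, 15 under median scaling, 8 with the Lars2 term, 23 on rescaling and 0 among libraries low in Lars2, with 1 to 8 when a library was left out. For HE2 against HE1 without doxycycline, in place of 10, they numbered 3 with no filter, 17 under quantile normalization and 0 among libraries low in Lars2, with 0 to 11 on leaving one out. For HP against HE2 without doxycycline, in place of 4, they numbered 18, 21, 17, 17 and 0 under quantile normalization, median scaling, the Lars2 term, rescaling and the low libraries alone, with 0 to 5 on leaving one out. For HE2 against HE1 with doxycycline, in place of 2, they numbered 1 with no filter, 7, 4 and 11 under quantile normalization, median scaling and the Lars2 term, and 0 among the low libraries, with 0 to 3. For HP against HE2 with doxycycline, in place of 19, they numbered 10 with no filter, 39, 37, 35 and 41 under quantile normalization, median scaling, the Lars2 term and rescaling, and 0 among the low libraries, with 1 to 18. The low libraries leave 1 residual degree of freedom, and a lone library is assumed to vary like the other groups; otherwise the cause of these moves was not tested. In HP with doxycycline and for the 3 differences of effects, 0 were called under every alternative.

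The replicate numbers are not stated to pair samples, and differences between replicates correlated by number at 0.082 in HE1, 0.489 in HE2 and 0.436 in HP between PlusDox and NoDox (−0.1 to 0.526 over all pairs of groups). With the replicate number as a block, calls numbered 1 and 29 in HE1 and HE2 with doxycycline, 37 and 14 for the steps without doxycycline, and 16 and 38 for those with it. The shares of all tested genes called with the block are not given here. With 2 libraries per group and no read counts, the intervals of single genes rest on the shared spread, and the shallowest libraries (relative depth 0.58 and 0.644) are both PlusDox.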
